A study of Rattus norvegicus with 24 samples.

Results

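This account describes the left ventricle 1 day after complete transection of the spinal cord, set against sham surgery, in 12 of the 24 libraries of the study. The 12 were taken by their labels, 6 from male Wistar rats with transection at a high thoracic level and tissue collected 1 day later, and 6 from male Wistar rats whose dura was opened at that level with the cord left intact and whose tissue was collected 7 days later. Both groups had surgery, no transgene or drug is named for either, and the sampled tissue was the free wall of the ventricle at mid-ventricular level, frozen at once. The other 12 libraries, from 3 days and 12 weeks after transection, enter here only through the shared estimate of spread and where a value at 1 day is set beside them.

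Nerve cells of the upper thoracic cord supply the heart with its sympathetic drive, which raises rate and contractile force, and they are themselves controlled by fibres that descend from the brainstem. A complete transection above or at this level cuts those descending fibres to the part of the cord below the cut. The parasympathetic supply through the vagus nerve leaves the brainstem outside the cord. The left ventricle is built largely of cardiomyocytes by mass, with endothelial cells, fibroblasts, vessel wall cells and immune cells between them.

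RNA was counted per gene. The table pairs no gene ID with a symbol, and none of its 23098 IDs could be matched to the gene table used for names (0 matched). Genes are therefore described as groups by direction, size and abundance, and 4 are given by ID. The labelled tissue was not checked against the marker genes of its cells for the same reason. In whole tissue, fewer cells of a type and less RNA per cell cannot be told apart, so each level below is that of the tissue piece. No label says that each library came from its own rat, so that the p-values measure the spread between these libraries, which may in part be technical.

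The ranges of depth in the 2 groups overlapped. They held 27097306 to 70340174 counts in sham and 41326217 to 62308617 at 1 day, and 16840 to 17782 and 17277 to 17597 genes with a count. No difference in total counts or in genes detected passed a two-sided exact permutation test (p = 0.682 and p = 0.344, each with an adjusted p of 0.682 over 3 such tests). Each library correlated with the others of its group with a mean r of 0.986 to 0.989 in sham and 0.985 to 0.987 at 1 day, on log2 CPM (each count scaled by its library size) across genes. The groups differ in more than the injury. Sham tissue was taken at another day after surgery, and the sham libraries carry the numbers 63 to 68 and the 1 day libraries 77 to 82. The injury, the day of collection and the run of library numbers therefore cannot be told apart in this comparison. The 3 day libraries carry the numbers 57 to 62, directly below those of sham, and the 12 week libraries 83 to 88, directly above those of 1 day. In a comparison of 3 days or 12 weeks with 1 day, time and the run of library numbers likewise cannot be told apart.

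One day after transection the ventricle showed many small changes in both directions and few large ones. By edgeR's quasi-likelihood test with Benjamini-Hochberg adjustment, 1795 genes rose and 1820 fell against sham at an adjusted p under 0.05, which is 11.9% and 12.1% of the 15065 genes tested and 24% together. The median change was 1.41-fold among the genes that rose and 1.33-fold among those that fell. Changes of over 1.5-fold made up 40.7% of the rises and 31.8% of the falls. A rise of over 2-fold was called for 304 genes (2.02% of those tested) and a fall of over 2-fold for 242 (1.61%). With at least 1 CPM required in 6 libraries, which tests 13040 genes, these counts were 208 and 159. The number of calls of any size depended on the libraries that set the spread. With only the 2 groups compared in the fit, 2468 genes were called higher and 2367 lower, or 32.1%. With all 24 libraries in the fit, the median log2 fold change over all genes tested was 0.000501 with TMM scaling, which assumes that most genes do not change. It was 0.0161 with total counts as the only scaling. Both scalings give relative levels, so a change in the total RNA of the tissue would not be seen.

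The size of a change was often less certain than its direction. The 95% confidence interval of the fold change lay wholly beyond 1.2-fold for 778 of the genes that rose and 659 of those that fell. It lay beyond 1.5-fold for 241 and 169 genes, and beyond 2-fold for 46 and 47. Among the 11450 genes that were not called, the interval lay wholly within 1.2-fold of no change for 3161 (27.6%), within 1.5-fold for 7678 (67.1%) and within 2-fold for 9774 (85.4%). The other 14.6% had an interval that reached past 2-fold, so these data do not exclude a change of that size for them.

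All 6 libraries at 1 day lay above the sham mean for 1663 of the 1795 genes that rose, and below it for 1792 of the 1820 that fell. Over all genes tested this held for 19.1% upwards and 22.8% downwards. These are the libraries that made the calls, so the counts follow largely from the choice of genes and are a description. The stricter condition that every 1 day library lies beyond every sham library was met upwards by 1040 genes (6.9% of those tested) and downwards by 1197 (7.95%). These included 957 of the called rises (53.3%) and 1070 of the called falls (58.8%). Among the changes of over 2-fold the groups did not overlap for 189 of 304 rises and 159 of 242 falls.

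How evenly the difference from sham was present was also read in libraries that had no part in choosing the genes. Each of the 12 libraries was left out in turn, the genes were called from the remaining libraries, and the median log2 difference of those genes from the mean of the (other) sham libraries was then read in the library left out. In the 6 libraries at 1 day the genes called higher stood at 0.457, 0.377, 0.45, 0.486, 0.5 and 0.502 in order of replicate number, with a mean of 0.462 ± 0.0469 (SD, n = 6). The genes called lower stood at -0.386, -0.309, -0.425, -0.409, -0.422 and -0.411, with a mean of -0.394 ± 0.0437. All 6 libraries thus carried the difference from sham in both directions, and replicate 2 carried the smallest. A 1 day library left out shares its day of collection and run of library numbers with those that called the genes. The reading therefore shows how even the group difference was, and the injury, day and run cannot be told apart in it.

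In the sham libraries read in the same way, the genes called higher had medians of -0.0166 to 0.0593 and the genes called lower of -0.0626 to 0.0315, so the groups did not overlap in either direction. The sham means are 0.0337 ± 0.0281 and -0.0222 ± 0.0405 (SD, n = 6). Within a single 1 day library, 94.8 to 98.2% of the genes called higher without it lay above the sham mean, against 46.5 to 64.8% in a sham library. For genes called lower, 96.8 to 98.8% lay below it at 1 day and 43.5 to 67.9% in sham. The remaining sham libraries both choose the genes and set the zero of this scale, which both groups of libraries share.

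For the genes of over 2-fold change the held-out medians at 1 day ran from 1.01 to 1.31 upwards and from -1.28 to -1.04 downwards. In sham they ran from -0.0348 to 0.198 and from -0.281 to 0.133. Sham replicate 3 stood nearest to the 1 day libraries in both directions, with 0.198 and -0.281, and sham replicate 6 lay on the other side of zero in both, with -0.0348 and 0.133.

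**Figure D1:**
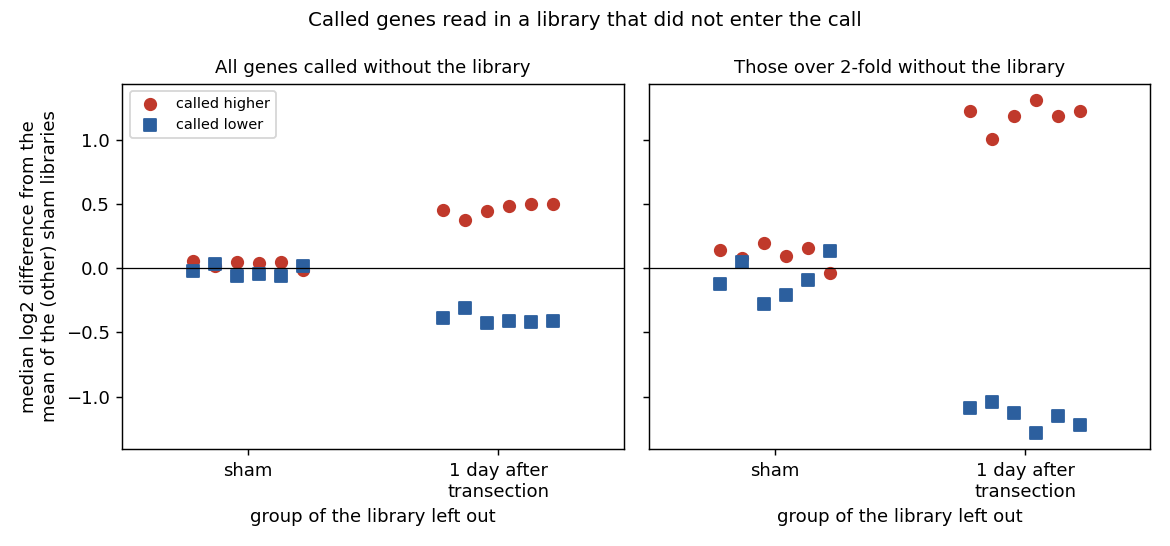
Each point is 1 library; the vertical axis gives the median log2 difference from the mean of the (other) sham libraries over genes called without that library (circles: called higher; squares: called lower), for all called genes on the left and those of over 2-fold change on the right. The 1 day libraries sit at 0.377 to 0.502 and -0.425 to -0.309 on the left, apart from the sham libraries around zero.

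The changes were spread unevenly over the range of abundance. Among the 61 genes with a mean of 1000 CPM or more, which together held 46.9% of the counts of a sham library, 2 were called higher and 2 lower, or 6.56%. The shares called were 27% of the 1237 genes between 100 and 1000 CPM, 28.2% of the 6691 between 10 and 100 CPM, 23.3% of the 4696 between 1 and 10 CPM and 12.4% of the 2380 under 1 CPM. CPM is not corrected for gene length, so these classes rank genes by the counts they draw and not by molecules.

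Few of the very most abundant genes of the ventricle were called. The 10 genes with the highest sham level held 32.5 to 35.8% of the counts in sham and 32.1 to 35.9% at 1 day (two-sided exact permutation p = 0.459, adjusted p = 0.682). None of the 10 was called by edgeR, DESeq2 or limma-voom (0 in each), and 0 had an unadjusted p under 0.05 by any of these tools. Their 95% intervals lay between 0.704-fold and 1.32-fold of sham. Of the 100 most abundant genes edgeR called 5 higher and 7 lower (12%), with fold changes from 0.506 to 1.58. With only the 2 groups compared in the fit the count was 24 of 100, where that fit called 32.1% of all genes tested. The wider group of the 500 most abundant held 48 rises and 69 falls (23.4%), 13 of them over 2-fold, a share near the 24% of all genes tested.

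The share of rises among the called genes differed between classes of abundance. Under 10 CPM the rises were in the majority, with 55.4% of the called genes under 1 CPM and 56.9% between 1 and 10 CPM. Between 10 and 100 CPM they made up 44.9%, with 847 rises and 1040 falls, and between 100 and 1000 CPM 47.6%, with 159 and 175. With total counts as the only scaling the rises were in the majority between 100 and 1000 CPM (155 and 142), while they remained the minority between 10 and 100 CPM (735 and 782). With RLE size factors, another scaling, there were 164 rises and 167 falls between 100 and 1000 CPM. Over all genes tested, called or not, the median log2 fold change was 0.0568 under 1 CPM and 0.0299 between 1 and 10 CPM. It was -0.0176 between 10 and 100 CPM and 0.000804 between 100 and 1000 CPM. Whether the shares of the calls come from this shift was not tested. No test was made of these shares, since genes are not independent replicates. Large changes were seen mainly in genes under 10 CPM. Of the changes over 2-fold, 122 of 304 rises and 100 of 242 falls were in genes under 1 CPM. A further 125 rises and 89 falls were in genes between 1 and 10 CPM. The median standard error of a log2 fold change was 0.358 under 1 CPM against 0.0821 between 10 and 100 CPM. Genes under 1 CPM had to change more to be called, with a median called change of 2.35-fold, against 1.27-fold between 10 and 100 CPM.

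**Figure D2:**
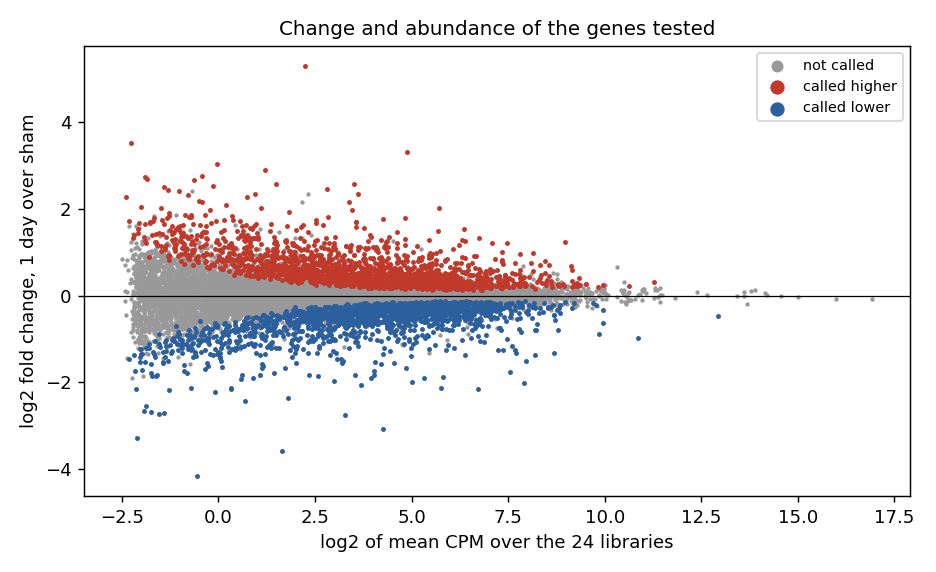
Each point is 1 of the 15065 genes tested, with the log2 of its mean CPM over the 24 libraries on the horizontal axis and its log2 fold change at 1 day over sham on the vertical axis; called rises are red and called falls blue. The widest changes lie on the left and the genes on the far right lie close to zero.

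**Figure D3:**
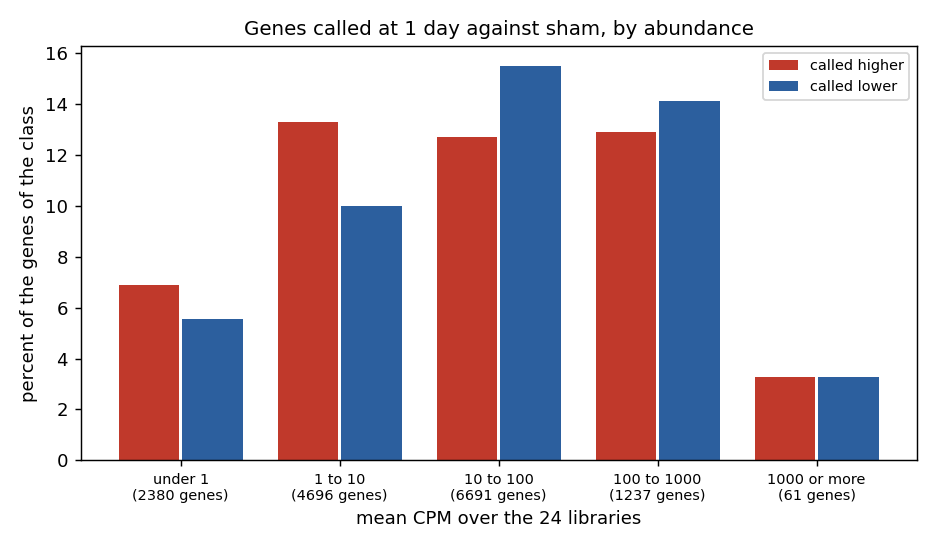
Bars give the percent of the genes in each class of mean CPM that were called higher (red) or lower (blue) at 1 day against sham by edgeR. The class of 1000 CPM or more has 3.28% in each direction, and falls outnumber rises between 10 and 100 CPM under each scaling tried, and between 100 and 1000 CPM except with total counts only (155 rises and 142 falls).

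Almost no gene was found in every library of one group and in none of the other. A total of 15353 genes had a count in all 12 libraries and 3256 in none. A single gene (1) had a count in all 6 libraries at 1 day and in no sham library, and 0 had the opposite pattern. Among genes with no count in sham, the highest sum over the 6 libraries at 1 day was 22 counts, and among genes with no count at 1 day the highest sum in sham was 21 counts. The called rises and falls were thus in genes detected in both groups, or in genes at the lower limit of detection.

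The called genes made up a moderate part of each library. Genes called higher held 5.98 to 6.36% of the counts in the sham libraries and 8.01 to 8.64% at 1 day, with means of 6.21 ± 0.155% and 8.32 ± 0.265% (SD, n = 6). Genes called lower held 9.55 to 10.5% in sham and 7.04 to 7.67% at 1 day, with means of 9.86 ± 0.337% and 7.39 ± 0.283%. These values describe genes chosen on the same libraries, so the separation of the 2 groups follows from the choice. In the libraries at 3 days the genes called higher at 1 day held 6.78 to 8.1% and the genes called lower 7.29 to 8.66%. At 12 weeks the shares were 5.99 to 7.92% and 8.85 to 9.7%. The genes were chosen against the same 6 sham libraries that give the sham ranges, so the distance of the later groups from sham also follows in part from the choice, and nothing is read from it.

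**Figure D4:**
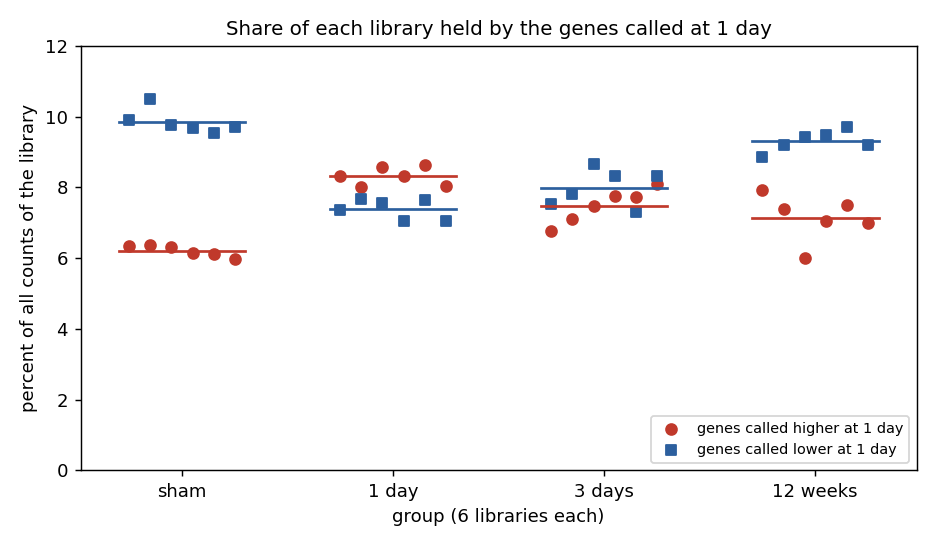
Each point is 1 library; the vertical axis gives the percent of its counts held by the genes called higher (red circles) or lower (blue squares) at 1 day against sham, with a line at the mean of each group of 6. The order of the gene sets is exchanged between sham, at 5.98 to 6.36% and 9.55 to 10.5%, and 1 day, at 8.01 to 8.64% and 7.04 to 7.67%.

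Genes called higher at 1 day had a median log2 fold change against sham of 0.493 at 1 day, 0.341 at 3 days and 0.152 at 12 weeks. Genes called lower had medians of -0.409, -0.288 and -0.103. All of these use the same sham libraries, and the genes were chosen for their value at 1 day, which raises that value against the others. For the 304 rises of over 2-fold the medians were 1.29, 0.999 and 0.588, and for the 242 falls -1.26, -0.946 and -0.444. The 29 rises of over 4-fold had medians of 2.44, 1.97 and 1.49, and the 22 falls of over 4-fold -2.4, -1.87 and -1.03.

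The large changes were also set against the later times by direct test. Of the 304 rises of over 2-fold, 157 (51.6%) had a lower level at 12 weeks by edgeR and 7 a higher one, where 16.1% of all genes tested were called lower and 17.8% higher in that contrast. Of the 242 large falls, 144 (59.5%) were higher at 12 weeks than at 1 day and 3 were lower. Between 3 days and 1 day, 21 of the large rises (6.91%) were lower at 3 days, against 1.51% of all genes, and 17 of the large falls (7.02%) were higher, against 1.23%. The same 1 day libraries enter the choice of the genes and these contrasts, which favours a return towards sham, so the shares are a description. Time and the run of library numbers cannot be told apart in either contrast.

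Each of the 4 genes given by ID was among the 2 largest called rises or falls in genes of sufficient abundance. All 6 libraries at 1 day also had to lie on 1 side of the sham mean. Separation of the groups in these same libraries thus follows largely from the choice and is a description. Over all genes tested, every 1 day library lay above every sham library for 6.9% and below for 7.95%. No name or function could be given for the 4 genes. ENSRNOG00000021027 had 4.9, 3.56, 13.4, 7.94, 5.71 and 5.53 CPM in the sham libraries in order of replicate number, and 103, 52, 55.9, 37.2, 98.5 and 64.6 CPM at 1 day. Every 1 day library was above every sham library, and sham replicate 3 was the highest of its group. The log2 fold change was 3.32 (SE 0.349, edgeR adjusted p = 6.6e-07). The level was lower again at 3 days, at 29.5 ± 7.4 CPM (SD, n = 6), with a log2 fold change of -1.22 against 1 day (SE 0.319, edgeR adjusted p = 0.0384).

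ENSRNOG00000013003 was rare, and even within sham and within the 1 day group. Its level was 0.855, 0.603, 1.03, 0.803, 1.03 and 0.941 CPM in sham, from 25 to 61 counts per library. At 1 day it was 5.77, 4.72, 5.65, 3.92, 5.71 and 5.38 CPM, so the groups did not overlap. The log2 fold change was 2.57 (SE 0.354, edgeR adjusted p = 1.56e-05). At 3 days the libraries were less alike, with 1.2 to 7.69 CPM and a mean of 3.91 ± 2.56, and the difference from 1 day was not called (log2 fold change -0.44, 95% interval -1.11 to 0.23, edgeR adjusted p = 0.525).

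Among the falls, ENSRNOG00000014448 had 54.6, 49.6, 13.7, 25.9, 46.7 and 48.9 CPM in sham and 3.33, 4.97, 5.39, 6.73, 3.65 and 4.26 CPM at 1 day. The groups did not overlap, with sham replicate 3 the lowest of its group, as it was the highest for ENSRNOG00000021027. The log2 fold change was -3.08 (SE 0.38, edgeR adjusted p = 4.66e-06). The level was 8.78 ± 2.57 CPM at 3 days and 23.4 ± 14.3 CPM at 12 weeks (SD, n = 6), and the rise from 1 day to 12 weeks was called with a log2 fold change of 2.32 (SE 0.373, edgeR adjusted p = 5.54e-05).

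ENSRNOG00000064002 fell without a return by 3 days. Its level was 16.7, 24.9, 28.2, 18.4, 20.1 and 32 CPM in sham and 5.51, 4.57, 2.61, 2.05, 4 and 2.03 CPM at 1 day, again with no overlap. The log2 fold change was -2.76 (SE 0.259, edgeR adjusted p = 1.33e-07). At 3 days the level was 2.71 ± 0.82 CPM (SD, n = 6), and its log2 fold change of -0.34 against 1 day was not called (95% interval -0.89 to 0.21, edgeR adjusted p = 0.571). At 12 weeks it was 8.63 ± 2.74 CPM, above 1 day with a log2 fold change of 1.33 (SE 0.255, edgeR adjusted p = 0.000342) and below sham with one of -1.43 (SE 0.247, edgeR adjusted p = 0.000218).

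**Figure D5:**
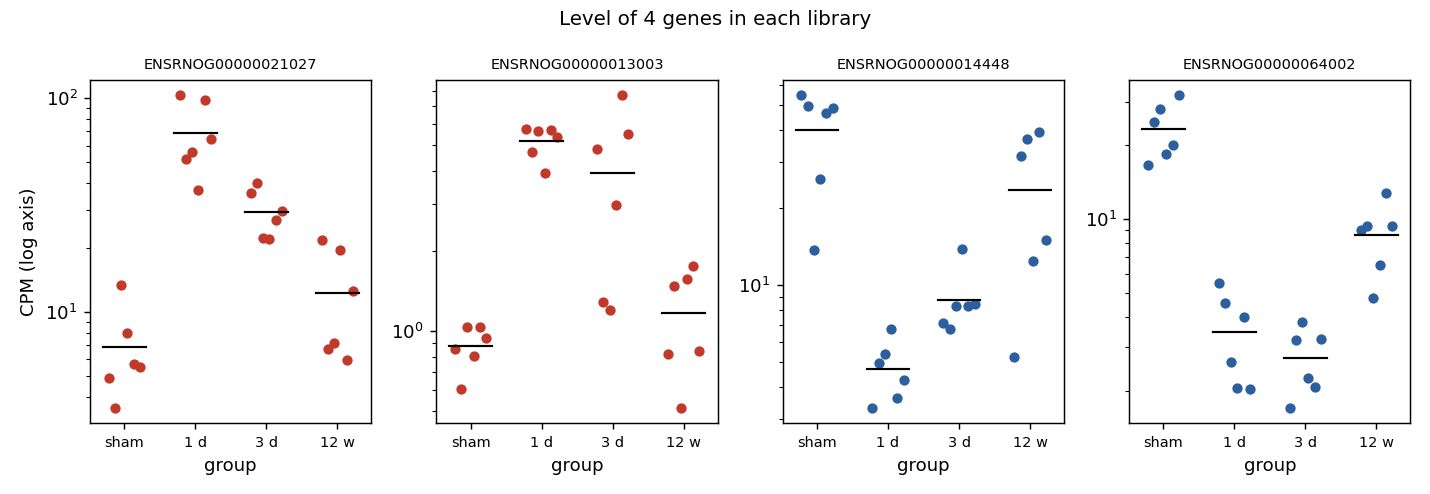
Each point is 1 library, with CPM on a log axis whose range differs between panels and a line at the mean of each group of 6. Red panels are the largest rises and blue panels the largest falls at 1 day among the genes that met the abundance and direction conditions. In all 4 panels the 1 day points do not overlap the sham points, which follows largely from how the genes were chosen.

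A further gene, chosen after its values were seen, shows how a single library can set the size of a change. It had the largest fitted rise among called genes whose log2 of mean CPM was at least 1 and whose 1 day libraries all lay above the sham mean. Its log2 fold change was 5.29 (SE 1.13, edgeR adjusted p = 0.00138). Replicate 4 at 1 day had 72.2 CPM, the next highest 1 day library 3.38 CPM and the lowest 0.567 CPM, while sham lay between 0.185 and 0.567 CPM. Without that replicate the log2 fold change was 2.67 (edgeR adjusted p = 0.016).

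The spread between libraries was slightly wider at 1 day than in sham. The median SD of log2 CPM across genes was 0.17 at 1 day and 0.156 in sham, and 56.5% of the genes tested had the larger SD at 1 day. The share was 54.2% among the rises, 57.7% among the falls and 56.7% among the genes not called. Without any 1 of the 1 day libraries the share over all genes was 53.7 to 56%. Sham libraries were not left out in turn, so how far the share depends on any of them was not tested. This is a description across genes, with no test.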

How the data were processed

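Total RNA of frozen left ventricle was depleted of ribosomal RNA and made into strand-specific paired-end libraries, per the labels' protocols. Per the submitters' processing notes, the tools were STAR 2.7.11a, featureCounts 2.0.6 and FastQC 0.12.1, and the genome build was mRatBN7.2. In the sources used here the annotation, the strand setting and the handling of multiply mapped reads are not stated, so overlapping or near-identical genes may share reads. The values are raw counts per gene as deposited by the authors, in 26166 lines for 23098 IDs. All lines of an ID were identical and each ID was used once. Of the 781 repeated IDs, 226 were tested and 22.6% called.

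The counts were tested with edgeR 4.0.16 (R 4.3.3). Genes were kept by filterByExpr, libraries scaled by TMM, and all 24 libraries entered 1 quasi-likelihood model whose only terms were the 4 groups (20 residual degrees of freedom). The contrast was 1 day minus sham, two-sided, called at an adjusted p under 0.05 over the 15065 genes tested. Standard errors are the fold change over the square root of F. In the held-out readings the gene filter and the scaling of levels came from all 24 libraries. Log2 CPM used a prior count of 2. Alternatives used DESeq2 1.42.0 and limma 3.58.1. Single values per library were compared by exact permutation over 924 arrangements, whose smallest p is 0.00216. The steps were tested on simulated data. Over 30 pairs of libraries within the 2 groups, chi-square per degree of freedom of their counts was 12.6 to 54.6, so no pair agreed within sampling noise.

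The rule for named genes asked for large called changes with a mean log2 CPM of at least 1, all 6 libraries at 1 day on 1 side of the sham mean, and a symbol. Symbols could not be had, so the symbol condition and the gene and marker lists were not applied, and the rule's size part was limited to the 2 largest rises and 2 largest falls. Of the called genes, 1396 rises and 1566 falls met it. The comparison, lists and rule were chosen with earlier results of these data known.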

Additional observations from a re-analysis of the deposited data

Results flagged for a closer look

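One held-out value stood apart from its group. Over the genes called lower without it, the 1 day replicate 2 library had a median log2 difference from sham of -0.309, where the other 1 day libraries had -0.425 to -0.386. The gap was 0.664 of the range of the group, above the critical value for 6 samples. A total of 28 groups of 6 were checked, and chance flags about 1 in 20. Leaving this library out gave 1748 genes higher and 1795 lower, the highest counts among the 12 fits that leave out 1 library.

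The levels of the 4 genes given by ID differed between times by edgeR's direct test. Against 1 day, ENSRNOG00000021027 had a log2 fold change of -1.22 at 3 days (adjusted p = 0.0384) and of -2.51 at 12 weeks (adjusted p = 7.44e-06). At 12 weeks ENSRNOG00000013003 had -2.14 (adjusted p = 6.96e-05), ENSRNOG00000014448 had 2.32 (adjusted p = 5.54e-05) and ENSRNOG00000064002 had 1.33 (adjusted p = 0.000342). With no sham group at each time, these compare groups of injured rats and not effects of the injury.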

How the results depend on the processing

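The counts of called genes, 1795 higher and 1820 lower, stayed within 1.5 times under all 20 alternatives. Leaving out each of the 12 libraries in turn gave 1550 to 1748 higher and 1490 to 1795 lower. The other settings gave 1617 to 2468 higher and 1434 to 2367 lower, the lowest with total counts as the only scaling, an alternative chosen after seeing the data, and the highest with only the 2 groups compared. The share of rises among called genes was 48.7 to 53% over all of these. Every scaling used gives relative levels, so an even split of calls does not show that rises and falls balance in the tissue. DESeq2 called 2094 and 1978, of which 1791 and 1820 were shared with the main calls, and no gene was called in the opposite direction under any setting (0 in each). The 4 genes given by ID kept their direction and call throughout, which follows largely from their choice as the largest changes in these libraries. The 242 falls of over 2-fold came to 159, and the 304 rises to 208, with at least 1 CPM required in 6 libraries, which tests 13040 genes. The replicate numbers did not pair the libraries: same-numbered sham and 1 day libraries had deviations from their group means that correlated with r of -0.13 to 0.11, and 1 of 6 sham libraries matched its own number best. With the number as a replicate block, 1691 genes were higher and 1729 lower. Changes to the gene lists were not run, since the lists were not applied. For genes under 1 CPM the median standard error of 0.358 limits what can be seen.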
